A study of Rattus norvegicus with 48 samples.

Results

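The miR-23, miR-27 and miR-24 clusters are a pair of gene loci that each give rise to 3 neighbouring microRNAs (miRNAs). Their mature products were followed here in rat serum and bone under type 2 diabetes and its treatment. The members were taken by name: rno-miR-23a-3p, rno-miR-23b-3p, rno-miR-24-3p, rno-miR-27a-3p, rno-miR-27a-5p and rno-miR-27b-3p, which are 6 of the 763 mature miRNAs listed in every library. Of those 763, 629 had at least 1 read in the series, the 6 members among them. The names cover both arms of miR-27a, so that the arms of this one hairpin could be compared.

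The study sequenced small RNA from serum (32 libraries) and ulna bone (16 libraries) of male rats. ZDF (Zucker Diabetic Fatty, fa/fa) rats carry a homozygous mutation of the leptin receptor and develop type 2 diabetes, and Zucker lean (+/+) rats, called WT, were the non-diabetic control. All rats received the same high-fat, high-carbohydrate chow and a 3 mm defect in the femur at 11 weeks of age, and samples were taken after 12 weeks of treatment. WT rats received placebo (5 sera, 4 bones), PTH (parathyroid hormone, a bone anabolic agent at 75 µg/kg, 5 sera, 4 bones) or anti-sclerostin (an antibody against the osteocyte-derived Wnt inhibitor sclerostin at 25 mg/kg, 4 sera). ZDF rats received placebo (5 sera, 4 bones), PTH (5 sera, 4 bones), anti-sclerostin (4 sera) or insulin (4 sera). The ulna was sampled away from the femur defect. The rats of the anti-sclerostin, PTH and insulin arms had come from separate earlier experiments. The study credits the placebo rats to the PTH and insulin experiments and not to the anti-sclerostin experiment. Experiment and treatment therefore cannot be told apart for anti-sclerostin against placebo. For PTH and insulin the labels do not say which placebo rat belonged to which experiment, so experiment could not be accounted for. The placebo groups served several comparisons. Per the study's methods serum and ulna were taken from shared animals, apart from 2 of 4 ulnae in the ZDF PTH group, but the labels do not say which bone belongs to which serum, and p-values measure the spread between these libraries.

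A miRNA is cut from a hairpin precursor. One strand of the resulting duplex, from the 5p or the 3p arm, is usually loaded into Argonaute and guides it to messenger RNAs that pair with the seed near the 5′ end of the miRNA, while the other strand is usually degraded. The miR-23a cluster has been linked to osteoblast differentiation through Runx2, and miR-27 is known as a repressor of the adipogenic regulator Pparg. All members are widely expressed, in endothelium, blood cells and mesenchymal cells among others, so their presence in serum does not name a source.

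The sequences below show which members share a target-recognising seed and how close the paralogs are. They are RefSeq entries on the rat build GRCr8, the reads themselves having been mapped by the authors to Rnor 6.0, and the capitals mark the seed, bases 2 to 8 from the 5′ end.
rno-miR-23a-3p: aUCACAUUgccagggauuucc
rno-miR-23b-3p: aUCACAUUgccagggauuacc
rno-miR-27a-3p: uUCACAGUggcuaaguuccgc
rno-miR-27b-3p: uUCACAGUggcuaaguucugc
rno-miR-27a-5p: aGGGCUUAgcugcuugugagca
rno-miR-24-3p: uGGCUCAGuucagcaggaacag

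The miR-23 pair shared one seed, the miR-27 3p pair another, and miR-24-3p and miR-27a-5p each had a seed of their own. Within a pair the paralogs differed at a single base near the 3′ end, U19A from miR-23a-3p to miR-23b-3p and C19U from miR-27a-3p to miR-27b-3p, positions being counted from the 5′ end. Reads as short as 17 bases were kept and 1 mismatch was allowed in the assignment to miRBase. A full-length read can thus fit the other member of its pair with 1 mismatch. A shortened read that lacks base 19 can fit both members without any. The a and b values are therefore uncertain with respect to each other. In GRCr8 the first locus lies on the minus strand at chr19:40859455-40859843, where Mir23a, Mir27a and Mir24-2 sit within 389 bases. The second lies on the minus strand at chr17:1818669-1819482, where Mir23b, Mir27b and Mir24-1 sit within 814 bases. Mature miR-24-3p is identical from both loci. The precursor of miR-27a, printed from 5′ to 3′ with its arms in capitals, shows where both of its measured products lie.
Mir27a: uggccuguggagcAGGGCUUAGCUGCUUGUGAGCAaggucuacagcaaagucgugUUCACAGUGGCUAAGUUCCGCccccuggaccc

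The 5p arm takes bases 14 to 35 of this hairpin and the 3p arm bases 56 to 76.

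Depth set the precision of the low members. The sera held 28015 to 205664 miRNA reads (median 86229.5) and the bones 41627 to 1398702 (median 237032.5). Together the 6 members took 2.39% to 8.67% of the miRNA reads of a serum library and 2.82% to 7.76% of those of a bone library. Libraries of one group differed from each other by more than counting noise in all 11 groups. Synthetic extraction controls gave 51220 to 1008421 reads in serum and 2 to 65 in bone. The skeletal muscle miRNAs (miR-1-3p, miR-133a-3p, miR-133b-3p and miR-206-3p) summed to 47697 to 431263 CPM (read counts scaled to a common library total) in the bones, and all 4 were read in every bone library. The liver miRNAs (miR-122-5p, miR-122-3p and miR-802-5p) summed to at most 11.0 CPM there and were at 0 in some bones of each group. Because these are bulk samples, fewer cells of a type and less RNA per cell cannot be told apart.

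Levels are given as CPM after TMM (trimmed mean of M values) scaling, separately for serum and for bone, so that a serum CPM and a bone CPM are not on one scale. All members are 21 or 22 bases long, and their counts were compared without a length correction. In serum, miR-24-3p (17670 ± 9434 CPM, SD, n = 32) and miR-23a-3p (16912 ± 5837 CPM) were the most abundant members, at ranks 14 and 16 among all miRNAs. They were followed by miR-27a-3p (8712 ± 2744 CPM), miR-27b-3p (6866 ± 3215 CPM) and miR-23b-3p (2373 ± 1041 CPM). The miR-27a 5p arm was far lower, at 366 ± 294 CPM from 2 to 152 reads a library. In bone the order changed: miR-27b-3p led with 18769 ± 3815 CPM (n = 16), ahead of miR-23a-3p (11651 ± 5484 CPM), miR-23b-3p (7943 ± 4374 CPM), miR-24-3p (7001 ± 3384 CPM) and miR-27a-3p (4886 ± 1765 CPM). miR-27a-5p was again lowest, at 101 ± 42.8 CPM from 0 to 96 reads. When the groups were ordered by mean level, each neighbouring pair overlapped in range, for all 36 such pairs in serum and all 18 in bone.

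**Figure D1:**
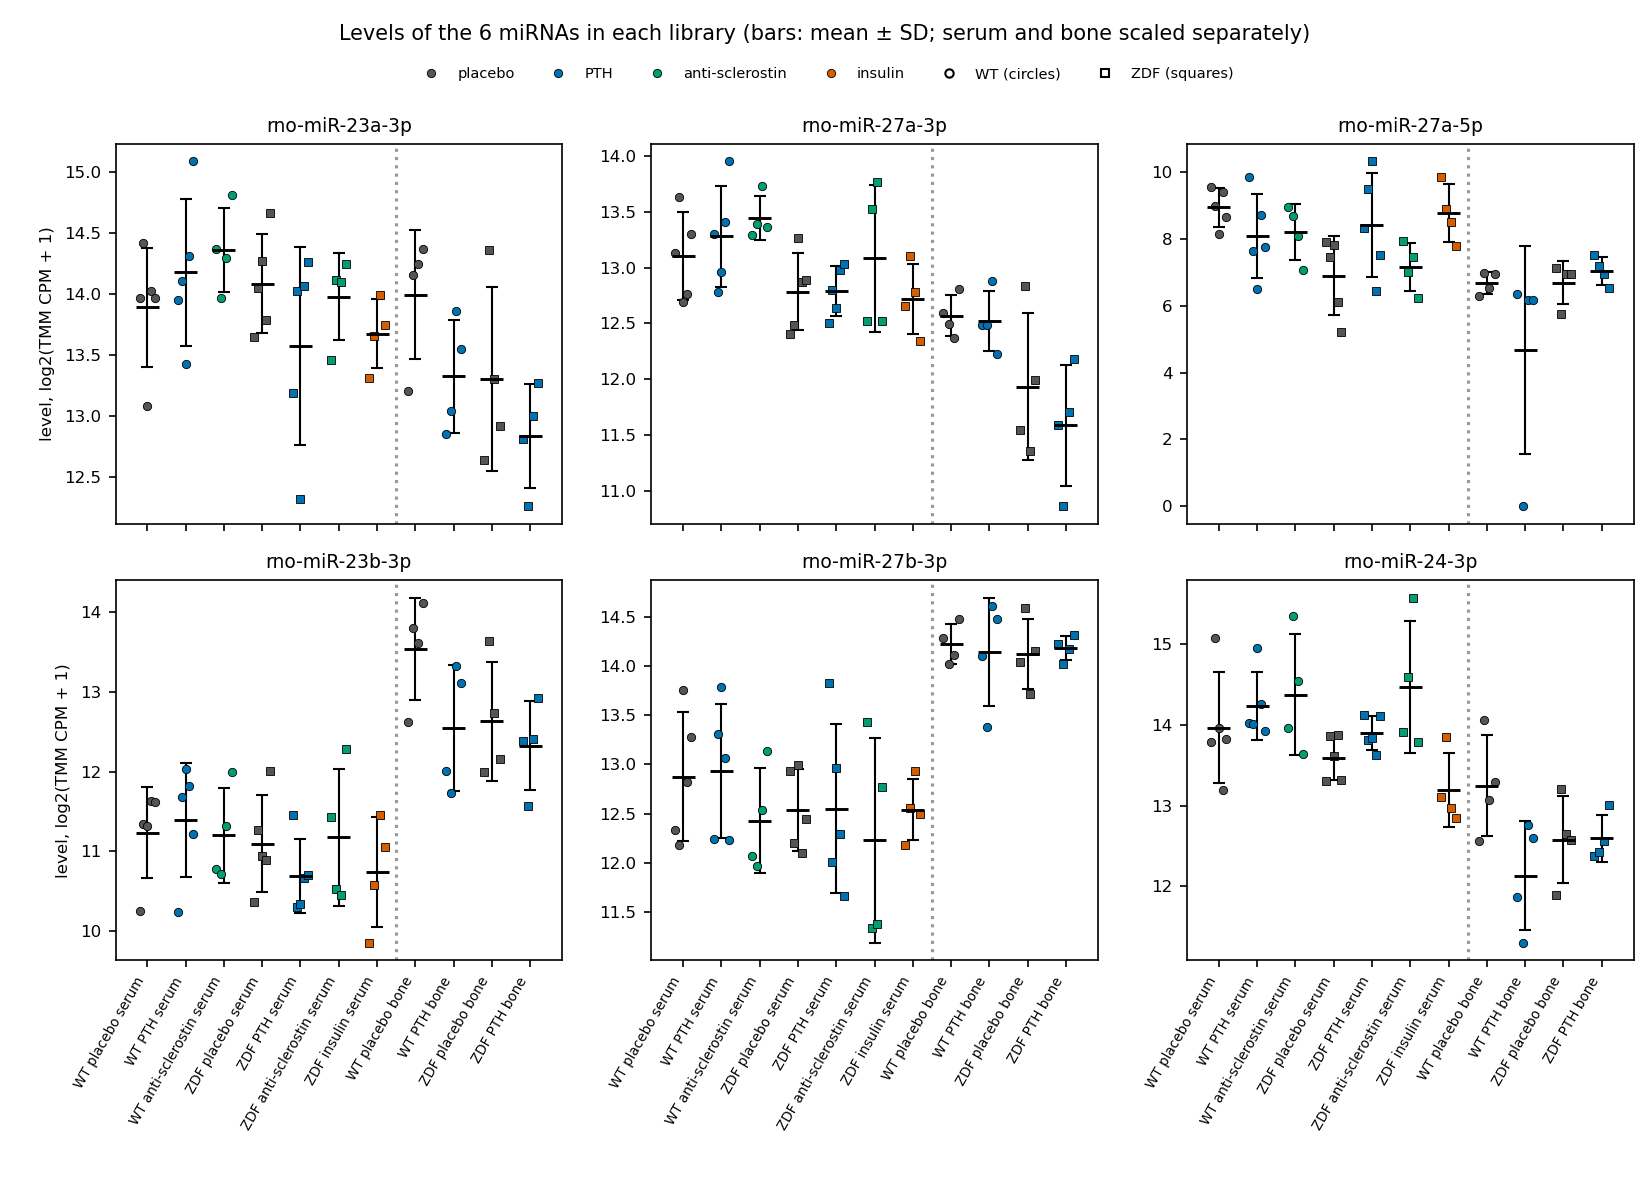
Level of each of the 6 miRNAs in every library as log2(TMM CPM + 1), with 1 added to every CPM; circles are WT and squares ZDF, colours give the treatment, and bars are the mean ± SD of a group of 4 or 5 libraries. The dotted line separates serum from bone, which were scaled separately. Groups of a tissue that follow each other when ordered by mean level overlap in every panel, while groups further apart in that order can separate. The miR-27a-5p panel holds the single library at 0, a PTH-treated WT bone.

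Which members differed between diabetic and non-diabetic rats was asked first in placebo-treated serum. miR-27a-5p, the less abundant arm of miR-27a, was the single member that passed the threshold (false discovery rate, FDR, below 0.2). In the 5 WT placebo sera its level was 752, 502, 279, 681 and 398 CPM, from 152, 44, 40, 47 and 60 reads. In the 5 ZDF placebo sera it was 241, 173, 222, 68.1 and 35.9 CPM, from 13, 15, 28, 5 and 2 reads. Every ZDF serum lay below every WT serum. The level fell by 1.84 on the log2 scale (SE 0.46, adjusted p = 0.0262, edgeR's quasi-likelihood test with Benjamini-Hochberg adjustment over 164 miRNAs). The background of that comparison was 10 of 164 miRNAs called (6.1%), 7 higher (4.27%) and 3 lower (1.83%), and 4 of 164 (2.44%) had groups that did not overlap. The other 5 members had log2 differences between -0.54 (miR-24-3p) and 0.12 (miR-23a-3p), with adjusted p from 0.486 to 0.925. The 3 liver miRNAs, all with reads in both groups, moved in the same libraries: they summed to 199 to 594 CPM in the WT sera and to 405 to 3372 CPM in the ZDF sera, and their part in the result was not tested. With the 4 erythrocyte miRNAs left out of the fit, the miR-27a-5p difference was -1.80 (adjusted p = 0.0296). Red-cell reads of other miRNAs remain in that fit, and their part was not tested.

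The arms of miR-27a were then compared within each library, where scaling between libraries plays no role. The 5p arm made up 7.74%, 3.8%, 4.07%, 8.92% and 3.78% of the miR-27a reads in the WT placebo sera. The corresponding shares in the ZDF placebo sera were 4.25%, 2.94%, 2.21%, 0.901% and 0.472%. One ZDF serum thus reached into the WT range. The log2 ratio of 5p to 3p was 1.63 lower in ZDF (-5.79 against -4.15, SE of the difference 0.61), with a two-sided exact permutation p of 0.0317, which became 0.119 when adjusted over the 15 comparisons made for this ratio. The threshold set for adjusted permutation p-values was 0.05, and the ratio did not pass. The smallest exact permutation p that 5 against 5 can give is 0.00794, which alone would not pass after adjustment over 15 comparisons. Not passing therefore does not show that the ratio was unchanged. miR-27a-3p, which represses Pparg among other targets, had 8973, 12717, 6595, 6954 and 10116 CPM in the WT placebo sera. In the ZDF placebo sera it had 5429, 5724, 9822, 7491 and 7568 CPM. These ranges overlapped, and the difference of -0.40 (SE 0.29, adjusted p = 0.589) did not pass. Relative to its cluster neighbour miR-23a-3p, miR-27a-3p stood lower in the ZDF sera (log2 ratio -1.3 against -0.79; exact permutation p = 0.0476, adjusted p = 0.429).

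**Figure D2:**
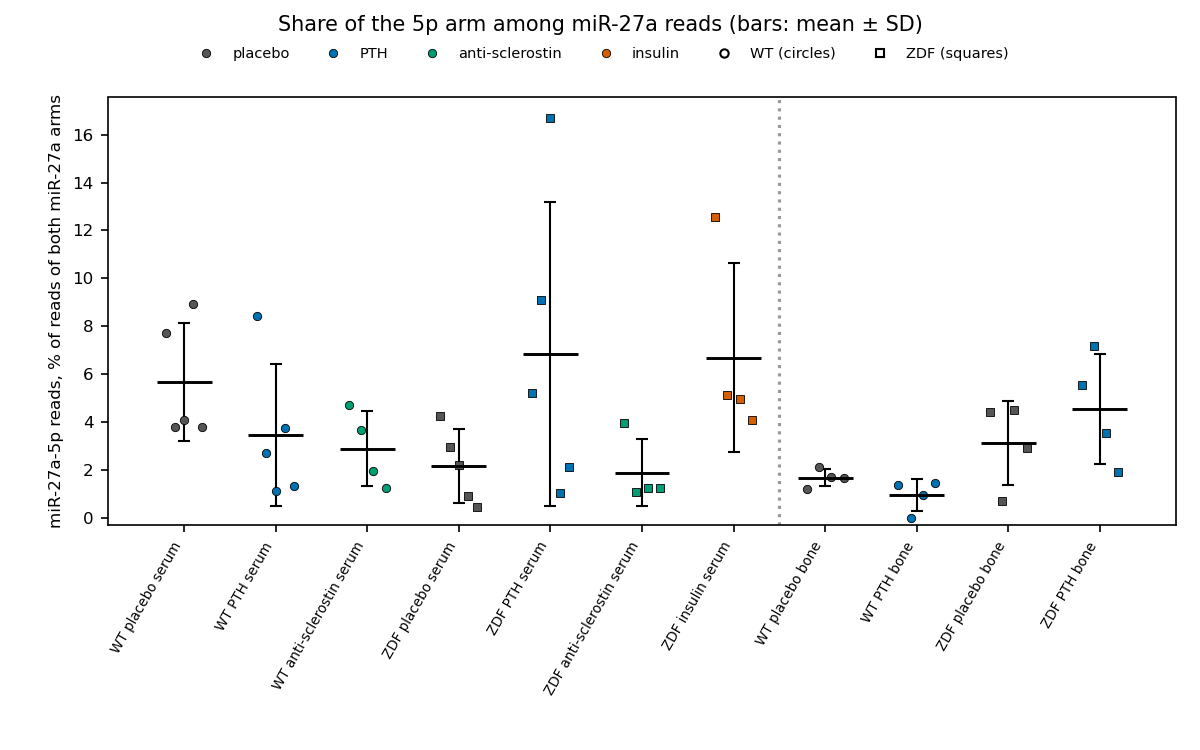
Reads of miR-27a-5p as a percentage of the reads of both miR-27a arms in every library; circles are WT, squares ZDF, colours the treatment, and bars the mean ± SD of 4 or 5 libraries. The share is spread from 0.472% to 16.7% in serum, with the highest value in a PTH-treated ZDF serum, and all 4 PTH-treated ZDF bones lie above all 4 PTH-treated WT bones.

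Among treated rats, the genotypes were compared under PTH and under anti-sclerostin. No member passed in either (0 of 158 miRNAs called under PTH, 0%, and 0 of 161 under anti-sclerostin, 0%, with 4.35% not overlapping between groups and no member among them), no member had an unadjusted edgeR p below 0.05, and DESeq2 called 0 members in both. miR-27a-5p differed by 0.48 (SE 0.70, adjusted p = 0.896) under PTH and by -0.99 (SE 0.53, adjusted p = 0.863) under anti-sclerostin. The lower level of miR-27a-5p in ZDF serum was thus called under placebo, and a difference of that genotype effect between treatments was tested by the interaction terms given further on.

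Insulin was given to ZDF rats alone, and its comparison shares the placebo ZDF sera with the comparison above. miR-27a-5p measured 927, 476, 365 and 221 CPM in the 4 insulin sera, from 54, 34, 30 and 11 reads. Set against the ZDF placebo values, 3 of the insulin sera lay above all 5 placebo sera and the fourth within their range. The level rose by 1.71 on the log2 scale (SE 0.52, adjusted p = 0.0646), and again no other member passed. In this comparison 40 of 151 miRNAs (26.5%) were called, 17 of them higher (11.3%) and 7.95% not overlapping, so 1 member of 6 is not above the background. Without replicate 1 of the insulin sera the difference was 1.21 (adjusted p = 0.204) and the call was lost. The 5p share of miR-27a reads was 12.6%, 5.13%, 4.95% and 4.09% under insulin, and the log2 ratio of the arms was 1.86 higher than under placebo (SE 0.67, exact permutation p = 0.0317, adjusted p = 0.119). Against placebo WT sera, miR-27a-5p of the insulin-treated ZDF sera differed by -0.04 (SE 0.45, adjusted p = 0.988).

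Red-cell miRNAs moved with insulin. The 4 erythrocyte miRNAs (miR-451-5p, miR-144-3p, miR-144-5p and miR-486), all with reads in every group, summed to 239566 to 376390 CPM in the insulin sera and to 89510 to 171566 CPM in the ZDF placebo sera. The red-cell miR-451-5p set against miR-23a-3p as a log2 ratio, a common index of hemolysis, was 3.18 to 3.79 under insulin, -0.49 to 1.41 in placebo ZDF and -0.51 to 3.3 in placebo WT sera. With the erythrocyte miRNAs left out of the fit, the miR-27a-5p difference in insulin against placebo was 1.84 (adjusted p = 0.0565). Leaving them out does not remove red-cell reads of other miRNAs, and the part of red-cell RNA was not tested. The denominator of that index is itself a member: miR-23a-3p was 10143, 12906, 16262 and 13704 CPM under insulin and 12841, 16939, 19764, 14152 and 25969 CPM under placebo, an overlapping difference of -0.47 (SE 0.27, adjusted p = 0.272).

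PTH gave wide values of miR-27a-5p in ZDF sera. They were 319, 713, 1277, 85.9 and 180 CPM, of which the first 3 listed lay above all placebo ZDF sera and the other 2 among them. The log2 difference of 1.76 (SE 0.62) had an unadjusted p of 0.0116 from edgeR's quasi-likelihood test and an adjusted p of 0.993, and 0 of 154 miRNAs (0%) passed. That outcome depended on the filter for low counts: when every miRNA with at least 1 read was kept, the difference was 1.83 with an adjusted p of 0.0241. In an earlier analysis of these data, simulated without change, the test of all miRNAs with independent filtering gave calls in nearly every simulation. The filter before the fit was used for that reason. That simulation concerned independent filtering, whereas miR-27a-5p passed with or without it when every miRNA with at least 1 read was kept. One of these sera carried 16.7% of its miR-27a reads on the 5p arm, the highest share of the series. The hemolysis index was -1.43 to 4.29 in the PTH-treated ZDF sera and -0.49 to 1.41 in placebo ZDF sera. In the same order, the erythrocyte miRNAs summed to 51638 to 277215 and to 89510 to 171566 CPM. The part of red-cell RNA in the PTH values was not tested. In WT sera PTH gave miR-27a-5p values of 926, 198, 89.9, 422 and 213 CPM, an overlap with the WT placebo sera and a difference of -0.52 (SE 0.53, adjusted p = 0.992; 0 of 170 miRNAs called, 0%). DESeq2 called no member under PTH in either genotype. The interaction, which asks whether the PTH response itself differed between genotypes, was 2.31 for miR-27a-5p (SE 0.88) with an unadjusted p of 0.0149 and an adjusted p of 0.922 from edgeR's quasi-likelihood test, and 0 of 182 miRNAs passed.

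Anti-sclerostin left miR-27a-5p of ZDF sera at 244, 129, 175 and 74.3 CPM, of which the first lay just above the highest placebo value (241 CPM) and the others among the placebo values, with a difference of 0.08 (SE 0.56, adjusted p = 0.938). In WT sera it was 495, 409, 271 and 133 CPM, a difference of -0.81 from placebo (SE 0.47, adjusted p = 0.522) with overlapping groups. In WT sera no member had an unadjusted edgeR p below 0.05, 0 of 171 miRNAs (0%) passed and DESeq2 called 0 members. The interaction of anti-sclerostin with genotype was 0.88 for miR-27a-5p (SE 0.71, adjusted p = 0.822).

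miR-24-3p, which is encoded in both loci, was the member with the lowest p under anti-sclerostin in ZDF sera. Its level in ZDF sera was 15450, 24665, 48931 and 14211 CPM with the antibody. Placebo ZDF sera had 10154, 14846, 12536, 15078 and 10187 CPM. On this scale the groups overlapped through the lowest treated serum, while on the scaling of these 9 libraries alone they did not, which held for 5 of 158 miRNAs (3.16%). The log2 difference was 1.11 (SE 0.36, unadjusted p = 0.00868), and its adjusted p of 0.24 from edgeR lay above the threshold that 2 of 158 miRNAs (1.27%) passed. DESeq2 put it at an adjusted p of 0.0554. Over the alternatives of processing the adjusted p ran from 0.0554 to 0.395, on both sides of the threshold, and with single libraries left out from 0.0789 (without treated replicate 1, difference 1.25) to 0.773. The latter was without treated replicate 3, the serum with 48931 CPM, where the difference dropped to 0.63. Myeloid and lymphoid miRNAs summed to 10822 to 74777 CPM in the treated ZDF sera and 19568 to 37716 CPM in the placebo ZDF sera. Endothelial miRNAs summed to 4102 to 7412 CPM in the treated ZDF sera and 8063 to 16273 CPM in the placebo ZDF sera, without overlap. The part of either list was not tested. In WT sera anti-sclerostin gave 15950, 41700, 23896 and 12815 CPM against 14135, 34544, 15916, 9359 and 14525 CPM with placebo, and the difference was 0.30 (SE 0.42, adjusted p = 0.788). The interaction term for miR-24-3p was 0.80 (SE 0.60, adjusted p = 0.822).

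Against placebo WT sera, miR-24-3p was lower in the insulin-treated ZDF sera, at 8821, 14838, 8003 and 7354 CPM. It fell by 0.86 on the log2 scale (SE 0.37, adjusted p = 0.161) with overlapping groups, as the only member among 30 of 154 miRNAs called (19.5%, with 7.79% higher, 11.7% lower and 5.19% not overlapping). The call was lost without WT placebo replicate 2, the serum with 34544 CPM (-0.44, adjusted p = 0.518), and also without insulin replicate 1, 3 or 4. It was also lost when all serum groups were fitted together (adjusted p = 0.264). Against placebo ZDF sera the insulin difference of miR-24-3p was -0.38 (SE 0.27, adjusted p = 0.417), and it passed without insulin replicate 2 (-0.62, adjusted p = 0.134).

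The other members gave smaller differences in serum. Over the 9 serum comparisons miR-23a-3p ranged from -0.56 to 0.29, miR-27a-3p from -0.54 to 0.46, miR-23b-3p from -0.79 to 0.26 and miR-27b-3p from -0.72 to 0.28 on the log2 scale, and none of these differences passed. The widest was miR-23b-3p in PTH-treated ZDF against WT sera, with 2805, 1268, 1300, 1620 and 1673 CPM in ZDF and 1208, 3298, 4179, 3624 and 2375 CPM in WT (SE 0.43, adjusted p = 0.896). The ranges overlapped, since the first ZDF serum lay among the WT sera and the first WT serum below all of ZDF.

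**Figure D3:**
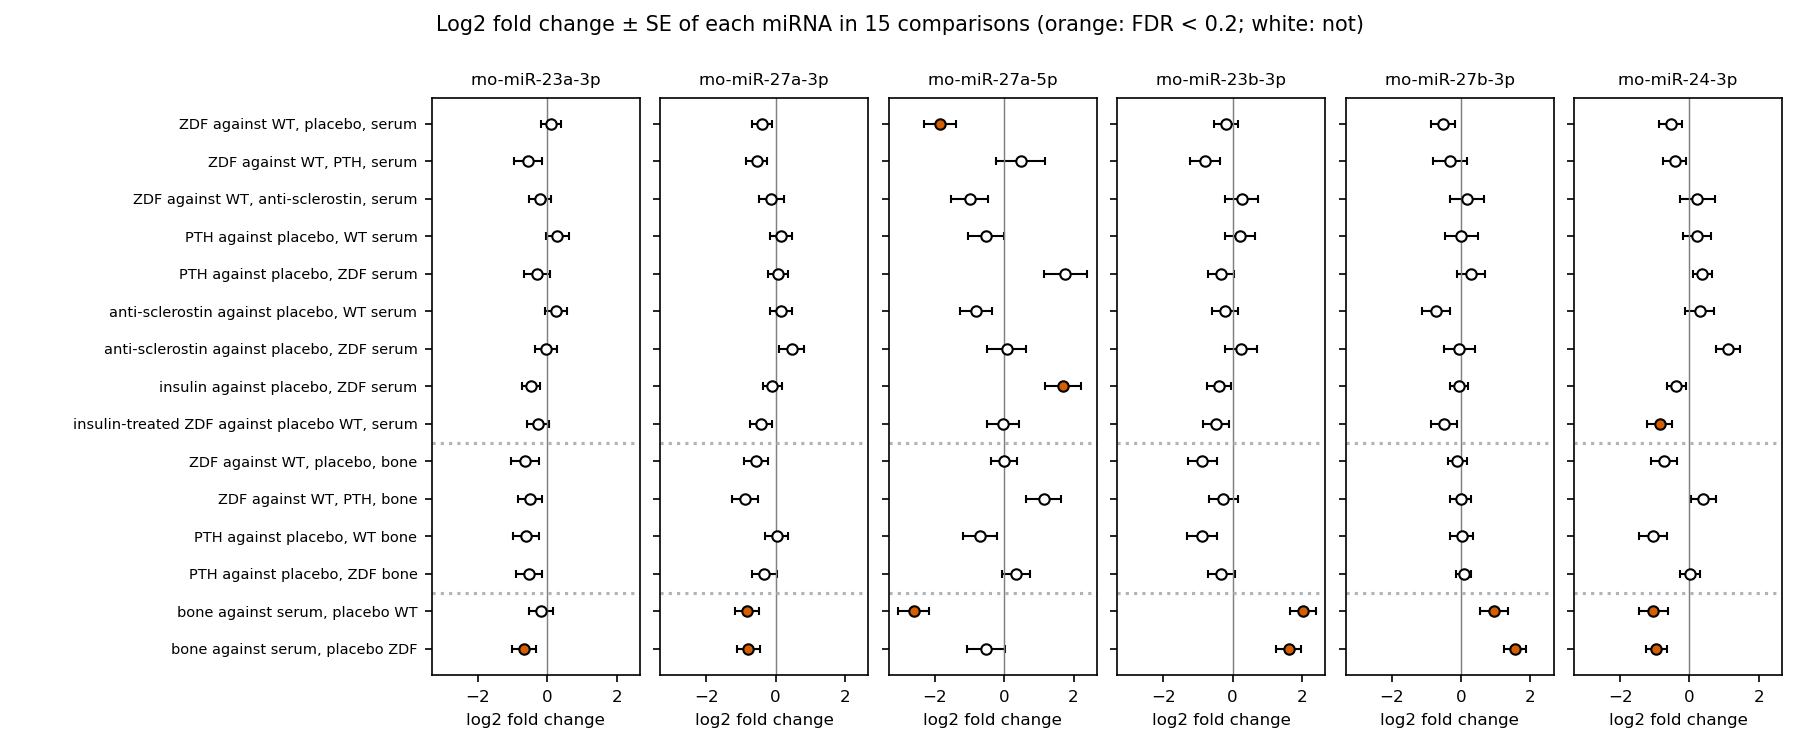
Log2 fold change ± SE of each miRNA (columns) in the 15 comparisons of 2 groups (rows), from edgeR's quasi-likelihood fit; orange points passed FDR < 0.2 and white points did not. Dotted lines separate the 9 serum, 4 bone and 2 tissue comparisons; within a tissue the orange points are miR-27a-5p in 2 comparisons and miR-24-3p in 1, and 10 of the 12 points of bone against serum are orange.

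In bone, diabetes and PTH were examined in 4 comparisons, and no member passed in any of them. The backgrounds were 6 of 235 miRNAs for ZDF against WT under placebo (2.55%, with 2.13% higher and 10.2% not overlapping), 7 of 214 under PTH (3.27%, with 2.8% higher), 12 of 222 for PTH against placebo in WT (5.41%, all lower) and 0 of 215 in ZDF (0%). Unadjusted edgeR p-values were below 0.05 for 0, 2, 1 and 0 members in that order, and DESeq2 called 0, 1, 1 and 0. The shares of all miRNAs under these measures are not given here, so these counts do not set the members apart. miR-27a-5p was 76.5, 124, 91.1 and 121 CPM in the WT placebo bones and 138, 52.6, 123 and 122 CPM in the ZDF placebo bones. The groups overlapped (adjusted p = 0.993), in the same contrast of genotype that was called in serum. The differences of the 3p members, none of which passed, were -0.88 for miR-23b-3p (SE 0.42, adjusted p = 0.323), -0.74 for miR-24-3p (SE 0.38), -0.63 for miR-23a-3p (SE 0.40), -0.56 for miR-27a-3p (SE 0.34) and -0.11 for miR-27b-3p (SE 0.27, adjusted p = 0.919). These values turned on which libraries were included. miR-23a-3p was 6380, 21002, 10117 and 7750 CPM in the ZDF placebo bones against 9468, 18274, 19449 and 21109 CPM in the WT placebo bones. Without ZDF replicate 2, which held the most miRNA reads of the series (1398702), 4 members passed, as did 24.7% of all 223 miRNAs then fitted: miR-23a-3p (-1.08), miR-23b-3p (-1.3) and miR-27a-3p (-0.92), each with an adjusted p of 0.0879, and miR-24-3p (-0.96, adjusted p = 0.17). Leaving out WT replicate 1 gave 2 members, with 33% of 264 miRNAs called, miR-23b-3p (adjusted p = 0.107) and miR-24-3p (-0.92, adjusted p = 0.134). Mesenchymal and cartilage miRNAs summed to 40019 to 73346 CPM in WT placebo bones and 25331 to 39091 CPM in ZDF placebo bones. In the same order, myeloid and lymphoid miRNAs summed to 5568 to 8506 and 4223 to 5415 CPM. Endothelial miRNAs went the other way, with 18582 to 22444 and 22851 to 40570 CPM. The part of these cell types was not tested.

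In PTH-treated bones the arms of miR-27a differed in opposite directions between genotypes, and neither difference passed. miR-27a-5p was 80.0, 0, 71.2 and 71.1 CPM in the WT PTH bones and 181, 143, 122 and 91.6 CPM in the ZDF PTH bones. These values came from 4, 0, 13 and 25 reads in WT and 71, 34, 22 and 96 reads in ZDF. WT replicates 1 and 2 were the shallowest bones, with 54497 and 41627 miRNA reads. All ZDF bones lay above all WT bones, a separation that 24 of 214 miRNAs (11.2%) showed in one direction or the other. The log2 difference was 1.14 (SE 0.50), with an unadjusted p of 0.0397 and an adjusted p of 0.317 from edgeR's quasi-likelihood test. The 3p arm, rno-miR-27a-3p, had the opposite sign, at 5740, 5748, 7555 and 4792 CPM in WT and 3081, 1856, 3333 and 4645 CPM in ZDF, a difference of -0.89 (SE 0.38, adjusted p = 0.317). DESeq2 called it, and in edgeR it passed without ZDF replicate 4 (-1.17, adjusted p = 0.16, 11.7% of all miRNAs called). The 5p share was 1.37%, 0%, 0.934% and 1.46% in WT and 5.56%, 7.17%, 3.54% and 1.93% in ZDF. The bone at 0% had 0 of 219 miR-27a reads on the 5p arm, which allows a share of up to 1.37%, counting error only. The log2 ratio of the arms was 2.34 higher in ZDF (SE 0.78), with an exact permutation p of 0.0286, the smallest that 4 against 4 can give, and an adjusted p of 0.119. Myeloid and lymphoid miRNAs summed to 3611 to 7182 CPM in the WT PTH bones and 3670 to 6010 CPM in the ZDF PTH bones, and muscle miRNAs to 47697 to 70498 and 106932 to 182233 CPM; the part of muscle RNA in the arm values was not tested.

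In WT bones the member with the lowest p under PTH was again miR-24-3p. The PTH bones had 3720, 2519, 6919 and 6192 CPM and the placebo bones 6032, 17133, 8594 and 10010 CPM. Here too the groups overlapped on the scale of all bones and not on that of these 8 libraries, which was so for 7 of 222 miRNAs (3.15%). The difference of -1.05 (SE 0.42, unadjusted p = 0.0258, edgeR) had an adjusted p of 0.229, and DESeq2 gave 0.172. With single libraries left out its adjusted p ran from 0.0789 to 0.56. It passed without WT PTH replicate 4 (-1.20, adjusted p = 0.177, 18.9% of all miRNAs called), and without WT placebo replicate 1 (-1.23) together with miR-23a-3p (-0.80) and miR-23b-3p (-1.10), where 37.4% of all miRNAs were called. Without WT placebo replicate 2, the bone with 17133 CPM, the difference was -0.75 (adjusted p = 0.56) and 0 of 212 miRNAs were called. The PTH libraries with the lowest miR-24-3p were also the shallowest bones, with 54497 and 41627 miRNA reads. Muscle miRNAs summed to 47697 to 70498 CPM in these PTH bones and 54966 to 405263 CPM in the placebo bones, and their part was not tested. In ZDF bones PTH changed miR-24-3p by 0.02 (SE 0.29, adjusted p = 0.984), and the interaction was 1.07 (SE 0.56, adjusted p = 0.753; 0 of 243 miRNAs passed, no member had an unadjusted edgeR p below 0.05, and DESeq2 called 0 members).

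Bone was compared with serum in placebo rats of each genotype, and the a and b paralogs went different ways. In the WT placebo bones, miR-23b-3p took 0.719%, 1.53%, 1.22% and 1.44% of all miRNA reads, and in the WT placebo sera 0.12%, 0.262%, 0.307%, 0.337% and 0.33%. The ranges were apart, and the level was 2.02 higher in bone on the log2 scale (SE 0.37, adjusted p = 0.000195). miR-27b-3p took 2.28%, 1.79%, 1.72% and 1.85% in these bones and 0.508%, 0.466%, 1.66%, 0.771% and 1.04% in these sera, 0.95 higher in bone (SE 0.40, adjusted p = 0.0449). The members of the first locus went down or did not pass: miR-27a-3p by -0.82 (SE 0.34, adjusted p = 0.0426), miR-27a-5p by -2.60 (SE 0.45, adjusted p = 0.000107) and miR-23a-3p by -0.18 (SE 0.34, adjusted p = 0.642). miR-24-3p was lower in bone by 1.04 (-1.04, SE 0.42, adjusted p = 0.0382). In ZDF rats the b members were again higher in bone, miR-23b-3p by 1.62 (SE 0.37, adjusted p = 0.00091) and miR-27b-3p by 1.55 (SE 0.31, adjusted p = 0.000286). Lower in bone were miR-24-3p (-0.96, adjusted p = 0.00897), miR-27a-3p (-0.78, adjusted p = 0.0449) and miR-23a-3p (-0.66, adjusted p = 0.0981), but not miR-27a-5p (-0.52, SE 0.54, adjusted p = 0.394). Each genotype thus had 5 of 6 members called, where 80.6% of 222 miRNAs were called in WT and 86.1% of 202 in ZDF, so a call here does not set the members apart. Groups did not overlap for 3 of 6 members in each genotype, against 59% of all miRNAs in WT and 70.3% in ZDF. Serum and bone also differed in extraction and in how the tissues were handled, which cannot be told apart from the tissue. The placebo bones and sera share rats, and these tests, like those of the ratios given next, took them as independent because the pairs could not be matched. The calls of miR-23a-3p and miR-27a-3p in ZDF rats were lost without placebo bone replicate 1, 3 or 4, which left 3 members.

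Ratios within a library do not depend on the scaling. Those of an a member to a b member still depend on how reads that fit both were assigned. The arms of miR-27a differed between tissues in WT rats, where the log2 ratio of 5p to 3p was -5.89 in bone and -4.15 in serum without overlap (exact permutation p = 0.0159, adjusted p = 0.119), and overlapped in ZDF rats (-5.23 against -5.79, adjusted p = 0.531). miR-23a-3p made up 77.3% to 92.9% of the reads of the miR-23 3p pair in the WT placebo sera and 54.4% to 60.9% in the WT placebo bones. In ZDF rats it made up 86.3% to 90.9% in serum and 59.9% to 62.9% in bone. For the miR-27 3p pair, miR-27a-3p was 32.3% to 73.3% in WT placebo sera and 23.1% to 25.8% in bones, and 40.9% to 63.1% and 15.1% to 23.0% in ZDF. Serum and bone did not overlap in any of these 4 contrasts. The log2 ratio of miR-23a-3p to miR-23b-3p was lower in bone by -2.20 (SE 0.35) in WT and -2.31 (SE 0.14) in ZDF, and that of miR-27a-3p to miR-27b-3p by -1.88 (SE 0.43) and -2.43 (SE 0.27). Each had an exact permutation p of 0.0159, the smallest that 4 against 5 can give, and an adjusted p of 0.119 over the 15 comparisons of its ratio. None passed the threshold of 0.05 set for the ratios, and groups of this size limit how low an adjusted value can go. Within bone, miR-27a-3p formed a smaller share of the pair in ZDF than in WT placebo rats: 15.1%, 23.0%, 16.3% and 18.3% against 23.6%, 25.8%, 23.1% and 24.0%. All ZDF values lay below all WT values, by -0.53 in the log2 ratio (SE 0.17; exact permutation p = 0.0286, adjusted p = 0.143). Under PTH the shares were 13.9%, 10.0%, 15.3% and 18.6% in ZDF and 24.7%, 35.0%, 23.2% and 17.4% in WT, with an overlap of 1 library (-0.98, SE 0.35, exact permutation p = 0.0571, adjusted p = 0.214). The miR-23 pair showed no such separation in bone (0.22, SE 0.10, under placebo).

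**Figure D4:**
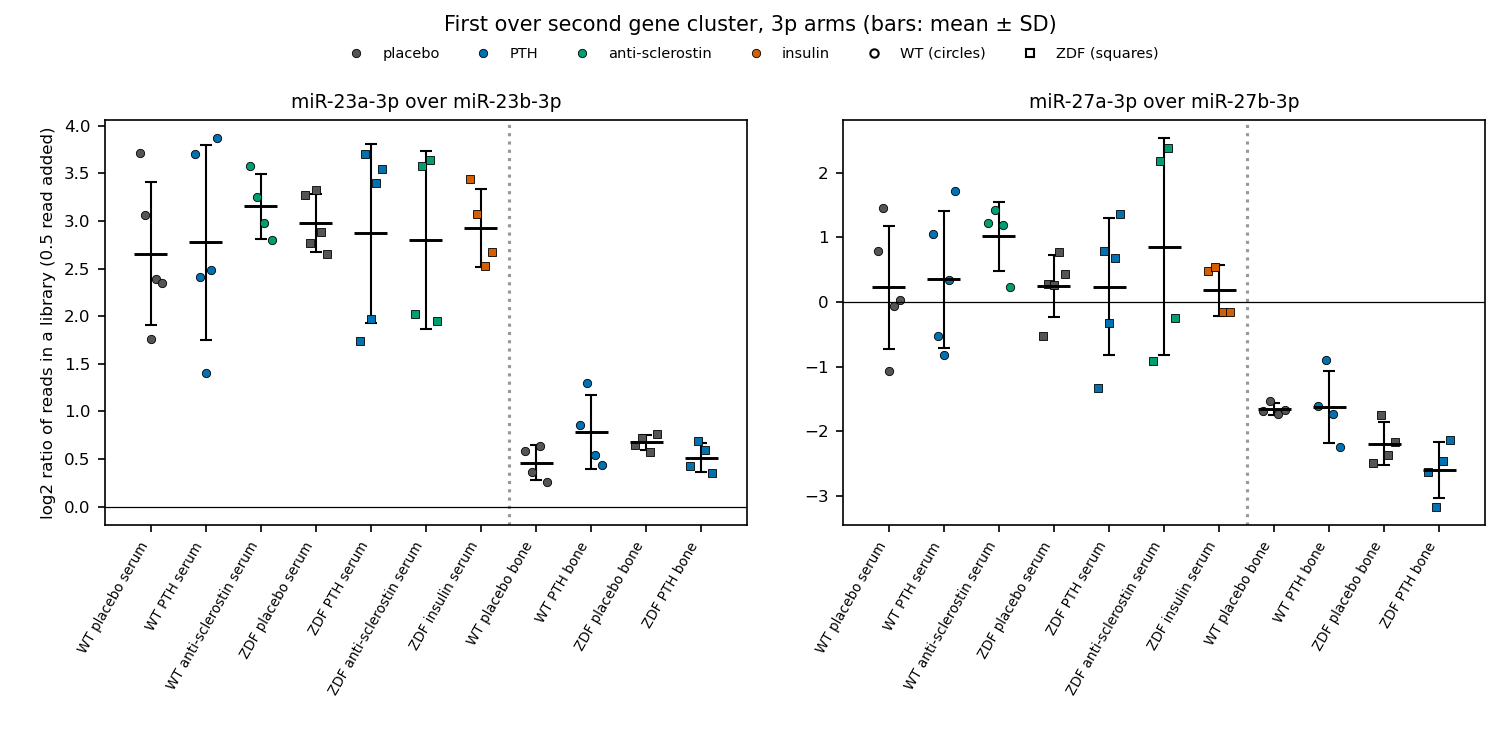
Log2 ratio of the reads of miR-23a-3p to miR-23b-3p (left) and of miR-27a-3p to miR-27b-3p (right) in every library, 0.5 read added to each; circles are WT, squares ZDF, colours the treatment, and bars the mean ± SD. Every bone lies below every serum in the left panel (highest bone 1.3, lowest serum 1.4), while in the right panel the lowest serum (-1.32) lies below the highest bone (-0.89).

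The 5 other arms of the hairpins were mostly near the limit of detection. miR-24-2-5p, which comes from the first locus alone, was the exception, with 31 to 323 reads in serum and 16 to 1364 in bone. miR-24-1-5p, from the second locus, had 14 reads over all 32 sera and 274 over the 16 bones, so the arms that name a miR-24 locus came to 4319 reads against 14 in serum and 7263 against 274 in bone. The share of miR-24-1-5p among both was 0.559% ± 1.91 (SD, n = 32) in serum and 3.14% ± 1.58 (n = 16) in bone. miR-23b-5p and miR-27b-5p, also of the second locus, had 6 and 13 reads over all sera and 94 and 356 over all bones. miR-23a-5p had 154 and 214. In the 9 serum comparisons miR-24-2-5p was the only one of the 5 with enough reads to be fitted, and it passed in 0 of them (log2 differences -0.30 to 0.41, adjusted p from 0.625 to 0.993). Bone against serum in WT rats called miR-23a-5p (-1.61, adjusted p = 0.00875) and miR-24-2-5p (-0.70, adjusted p = 0.113) lower. In ZDF rats miR-24-2-5p differed by 0.01 (SE 0.29, adjusted p = 0.962), and miR-23a-5p had too few reads to be fitted.

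A further 12 miRNAs known as regulators of Runx2 or Pparg were read alongside the clusters. In placebo serum, 5 of the 12 had enough reads, and 0 passed between ZDF and WT (median log2 difference -0.51, against -0.09 over all 164 miRNAs). In insulin-treated ZDF against placebo WT sera, 2 of 6 were lower, miR-133a-3p (-1.85, adjusted p = 0.125) and miR-218a-5p (-2.29, adjusted p = 0.0749), where 11.7% of all miRNAs were lower. The list median there was -0.58 and that of all miRNAs -0.05. In bone, miR-133a-3p, which is also a skeletal muscle miRNA, was the only one called: it was higher in ZDF than in WT under PTH (1.3, adjusted p = 0.0354, 1 of 8 fitted) and lower under PTH than placebo in WT (-1.83, adjusted p = 0.139, 1 of 9 fitted). Bone against serum called 7 of 9 higher and 2 lower in WT (list median 1.96, all miRNAs 0.10), where 41.9% of all miRNAs were called higher and 38.7% lower. In ZDF it called 6 of 8 higher and 2 lower (list median 3.69, all miRNAs 0.21), with 46% and 40.1% over all. The lower ones in both were miR-130a-3p and miR-130b-3p, which like miR-27 are known to repress Pparg.

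Variation between libraries of one group was compared last. Deviations of log2(CPM + 1) from the group means were ranked across the 32 sera, where depth and scaling are shared by all miRNAs, so the values are descriptive. miR-23a-3p correlated with its neighbour miR-27a-3p at Spearman's rho = 0.55 and with its paralog miR-23b-3p at 0.21, and miR-27a-3p stood at -0.57 with miR-27b-3p and at -0.01 with its own 5p arm. miR-23b-3p and miR-27b-3p of the second locus correlated at 0.60. The nearest profiles among 162 miRNAs were outside the clusters: miR-20a-5p for miR-27a-3p (0.86), miR-224-5p for miR-27b-3p (0.87), miR-199a-5p for miR-23b-3p (0.81), miR-130b-3p for miR-23a-3p (0.78), let-7g-5p for miR-24-3p (0.73) and miR-19a-3p for miR-27a-5p (0.71). Across the 16 bones, by contrast, miR-23a-3p and miR-23b-3p were each other's nearest of 254 miRNAs (0.93), miR-23b-3p was nearest to miR-24-3p (0.87), and miR-27a-3p and miR-27b-3p correlated at 0.69. Reads that fit both paralogs, as described above, may enter these pairs, and their part was not tested. In bone miR-27a-5p stood at -0.31 with miR-27a-3p, its nearest profile being miR-411-5p (0.87).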

How the data were processed

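Small RNA libraries of 32 sera and 16 ulnae were analysed. Per the study's methods and the labels, adapters were trimmed with cutadapt, reads of at least 17 nt were aligned with Bowtie to Rnor 6.0 and assigned to miRBase by miRDeep2 with 1 mismatch allowed. The authors deposited, for each library, raw read counts per mature miRNA and the same reads as RPM. The counts were used for all tests, the RPM of the whole library only to recover its total reads, and the column scaled to miRNA reads was not used. No column of another series was present.

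Groups came from the sample labels. Each comparison of 2 groups was fitted in R 4.3.3 with edgeR 4.0.16 (filterByExpr with a minimum count of 10, TMM, glmQLFit, glmQLFTest) over all miRNAs, with Benjamini-Hochberg adjustment and FDR < 0.2. The filter before the fit took the place of the independent filtering in the study's methods. Interactions were fitted on 4 groups. Levels are TMM CPM over all libraries of a tissue, and whether groups overlapped was read on the TMM scale of each comparison. Within-library log2 ratios (0.5 read added) were tested with two-sided exact permutation tests (scipy 1.17.1), adjusted over the 15 comparisons of each of 4 ratios. The threshold for these adjusted values was 0.05, and no ratio passed it in any comparison. The smallest possible p was 0.0286 for 4 against 4, 0.0159 for 4 against 5 and 0.00794 for 5 against 5. A single comparison with fully separated groups could therefore not pass after this adjustment. The limit for 0 reads is 3 reads and covers counting error only. Libraries held 28015 to 1398702 miRNA reads. The fit was tested on simulated data for placebo ZDF against WT serum, insulin against placebo ZDF serum and placebo ZDF against WT bone. In that order, with a log2 change of 2 simulated, 98.5%, 100% and 97.9% of the changed miRNAs fitted were called. False calls made up 13.3%, 12.2% and 14.5% of all calls. With no change simulated, 2, 2 and 4 of 20 simulations still gave a call.

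Alternatives were other filters, DESeq2 1.42.0 and its size factors, read totals, extraction controls, no erythrocyte miRNAs, robust fitting, all groups in 1 fit, FDR < 0.05, 1 read added, and each library left out. All 6 members were named, other arms and Runx2 and Pparg regulators by counts and where they passed, and the nearest of the 3 closest profiles by Spearman's rho among miRNAs with a mean of at least 10 reads. Members and lists were chosen with earlier results of these data known.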

Additional observations from a re-analysis of the deposited data

Results flagged for a closer look

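In groups of 4 or 5 libraries, 4 libraries stood far from the others of their group in the level of a member or in a within-library ratio, out of 110 sets of values examined. Chance marks about 1 in 20 such sets, which is more than were seen.

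miR-24-3p reached 34544 CPM in WT placebo serum replicate 2, where the other 4 sera of the group had 9359 to 15916 CPM. It is the serum whose removal ended the call of lower miR-24-3p in insulin-treated ZDF against placebo WT sera. In WT PTH serum replicate 3, miR-24-3p reached 31784 CPM, against 15615 to 19623 CPM in the other 4.

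miR-23b-3p was 2805 CPM in ZDF PTH serum replicate 1, with 1268 to 1673 CPM in the other 4 sera. miR-27a-5p had 0 reads in WT PTH bone replicate 2, the shallowest bone, and 71.1 to 80.0 CPM in the other 3 bones.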

How the results depend on the processing

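No paired analysis was possible because the replicate numbers were given in accession order and do not link libraries between groups. Over 18 comparisons the number of the 6 members that passed FDR < 0.2 was 1 in the comparisons of placebo ZDF with placebo WT serum, insulin with placebo ZDF serum and insulin-treated ZDF with placebo WT serum, 5 in each of bone with serum, and 0 in the other 13. With the extraction controls as library size it was 3 for ZDF against WT placebo serum, 4 for PTH in ZDF serum, 1 for anti-sclerostin in WT serum and 0 for insulin-treated ZDF against placebo WT. That scaling also moved the median log2 difference of all miRNAs, from -0.09 to -1.03 for ZDF against WT placebo serum and to 1.42 for PTH in ZDF serum, and the 2 members that it added to the first, rno-miR-24-3p (-1.51) and rno-miR-27b-3p (-1.71), had log2 differences of the same sign. Differences in serum that had not passed changed sign under it, such as that of rno-miR-23a-3p under insulin (-0.47 to 0.37). miRNA read totals without TMM gave 3 for insulin and 5 for insulin-treated ZDF against placebo WT. Keeping all miRNAs with at least 1 read gave 1 for PTH in ZDF serum, with or without independent filtering, and 0 for insulin-treated ZDF against placebo WT. With independent filtering it also gave 1 for anti-sclerostin in ZDF serum and 1 for the interaction of PTH with genotype in serum. Independent filtering after filterByExpr gave 1 for anti-sclerostin in ZDF serum and 1 for PTH in WT bone. DESeq2 gave 1 for these and 1 for ZDF against WT bone under PTH, and its size factors in edgeR 1 for anti-sclerostin in ZDF serum. At FDR < 0.05 both insulin comparisons had 0. With all groups of a tissue in 1 fit, insulin-treated ZDF against placebo WT had 0 and PTH in WT bone 1. The share of all miRNAs called under each of these settings is not given here. These counts therefore do not set the members apart from other miRNAs. The cause of the shifts was not tested.

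With single libraries left out, the counts ran from 0 to 1 for anti-sclerostin in ZDF serum, 0 to 2 for insulin, 0 to 1 for insulin-treated ZDF against placebo WT, 0 to 4 for ZDF against WT placebo bone, 0 to 1 for the same under PTH, 0 to 3 for PTH in WT bone and 3 to 6 for bone against serum in ZDF rats. They stayed at 1 for ZDF against WT placebo serum, where the log2 difference of miR-27a-5p ran from -2.07 to -1.60 and its adjusted p over all alternatives from 0.002 to 0.176. No reported difference that had passed turned its sign. The log2 ratio of the miR-27a arms ran from -1.97 to -1.23 between placebo ZDF and WT serum, and with 1 read added in place of 0.5 it was -1.55. Depth limits miR-27a-5p above all, whose lowest sera held 2, 3 and 5 reads.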
